A study of Mus musculus with 8 samples.

Results

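The IFI200 (PYHIN) genes are a cluster of interferon-inducible genes, and 9 of the 27998 genes in the count tables were examined here, namely Ifi203, Ifi204, Ifi205, Mnda, Mndal, Pydc3, Pydc4, Pyhin1 and Aim2. They were chosen by symbol, and their levels in these same libraries were known when they were chosen, so the levels and ratios below are descriptions with no test. The cells were YFP (+) microglia sorted from the lumbar spinal cord of young adult C57BL/6 mice and profiled by single-cell RNA sequencing, in which each captured RNA molecule is counted once through a unique molecular identifier (UMI). Control animals were Cx3cr1-yfp-creER/+, and A20 cKO animals were Cx3cr1-yfp-creER/+; Tnfaip3 fl/fl, in which tamoxifen removes Tnfaip3, the gene of the ubiquitin-editing protein A20, from cells that express Cx3cr1. The 4 libraries of a genotype came from naive mice and from mice at 1, 2 or 3 days after transection of the sciatic nerve, and values in runs of 4 follow this order. Both genotypes carried the Cre and YFP insertion in Cx3cr1, and per the study's methods animals were treated with tamoxifen. A library held the pooled cords of several animals, so each of the 8 groups was single, with no replicate. Control and A20 cKO below mean the libraries carrying those labels.

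PYHIN proteins combine, in most members, a pyrin domain that binds other pyrin domains with a HIN domain that binds double-stranded DNA. Aim2, the best known, senses DNA in the cytosol and recruits the adaptor Pycard (ASC) to form an inflammasome, while Ifi204 takes part in interferon induction by DNA. In macrophages, type I interferon raises most of these genes through promoter elements built of GAAA repeats. A20 restrains NF-kB signalling, one of the pathways upstream of interferon beta.

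After cells with at least 1000 UMIs, at least 500 genes and at most 10% mitochondrial UMIs were kept, 14626 of 14883 barcodes remained, with 1648400 to 15817426 UMIs per library in all barcodes and a median of 2780 to 4274 UMIs per kept cell. The microglial marker P2ry12 was detected in 90.1 to 100% of kept cells of each library, but Fcrls in 97.6% at most and in 26.7% of A20 cKO day 3 cells. Tnfaip3 itself stood at 6.83 to 25.3 UMIs per 1000000 UMIs of the library (CPM) in the control libraries and at 42.3 to 67.7 CPM in the A20 cKO libraries, so its level went against the label; counts of 3′ tags do not show whether the floxed part was present, and this is no check of the deletion. The libraries fell into 2 sets: control day 3 and the 4 A20 cKO libraries shared 256 cell barcodes over their 10 pairs, against 98 over the 15 pairs across sets and 27 over the 3 pairs of control naive, day 1 and day 2. These 5 are called linked below. The median rate per possible pair of barcodes was also highest among the linked pairs. The linked libraries also held neutrophil marker UMIs (24.4 to 45.6 CPM summed over the list, with 0 in each of the other 3) and more choroid plexus marker UMIs (132 to 417 against 0 to 0.285 CPM). Whatever set these 5 apart cannot be told apart from genotype or day in a comparison that crosses the 2 sets, and its part in the results was not tested. Comparisons inside the linked set are therefore given first. Intervals in parentheses cover counting error at 95% and nothing else.

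The 9 genes lie in a cluster on chromosome 1, with Gm4955, BC094916, AI607873 and Ifi202b of the same family among them. In the GENCODE M21 annotation (GRCm38, the mm10 build), the 13 genes of the family that were looked up span chr1:173350879-174031810, 0.681 Mb, with Aim2 at one end (chr1:173350879-173466040, plus strand) and Ifi205 at the other (chr1:174011998-174031810, minus strand). Between them lie Pydc4 (chr1:173566283-173599274, minus strand), Pyhin1 (chr1:173630917-173647928, plus strand), Pydc3 (chr1:173673675-173698395, plus strand), Ifi204 (chr1:173747293-173766943, minus strand), Mndal (chr1:173849126-173942491, minus strand), Mnda (chr1:173896345-173913046, minus strand) and Ifi203 (chr1:173920407-173942672, minus strand). This annotation names Mnda Ifi211, Pydc3 Ifi208, Pydc4 Ifi213 and Pyhin1 Ifi209. The Mndal span covers Mnda and most of Ifi203 on the same strand.

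The promoters of most of these genes hold the letters of an interferon response element, and windows of 60 bases around these letters were compared between members. Pyhin1 lacked a full match as Aim2 did, and Ifi204 had no promoter entry, so the match does not set Aim2 apart from all other members. Whether the element bears on their levels was not tested. In RefSeq promoters (GRCm38.p6, 250 bases before to 50 after the start), 8 of the 9 members had an entry, not Ifi204. The letters GAAA, any 2 bases, GAAA were found on either strand in 6 of these 8, against 3.44% of all 32851 promoters of this length. The windows of 60 bases are written 5′ to 3′ on the gene's strand, with the match, or the aligned bases in Pyhin1, in capitals.
Pydc4 (chr1:173599311-173599370, minus strand): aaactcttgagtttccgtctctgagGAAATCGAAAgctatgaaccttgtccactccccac
Pydc3 (chr1:173673582-173673641, plus strand): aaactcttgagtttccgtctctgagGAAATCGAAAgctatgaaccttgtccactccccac
Pyhin1 (chr1:173630755-173630814, plus strand): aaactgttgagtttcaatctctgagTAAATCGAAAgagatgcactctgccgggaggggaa
Mnda (chr1:173913049-173913108, minus strand): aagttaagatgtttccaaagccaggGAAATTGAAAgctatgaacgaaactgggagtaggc
Ifi205 (chr1:174031855-174031914, minus strand): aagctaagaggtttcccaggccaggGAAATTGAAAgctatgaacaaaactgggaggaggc
Mndal (chr1:173880189-173880248, minus strand): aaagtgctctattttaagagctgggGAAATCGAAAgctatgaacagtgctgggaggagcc
Ifi203 (chr1:173942493-173942552, minus strand): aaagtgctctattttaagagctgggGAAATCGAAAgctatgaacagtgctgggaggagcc

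The Pydc4 and Pydc3 windows were identical over 60 of 60 bases, and so were those of Mndal and Ifi203. Mnda and Ifi205 matched at 54 of 60 positions, while Pydc4 and Mnda matched at 30. Pyhin1 differed from the Pydc4 match by G1T, counted from 1 at the 5′ end of the 10 bases, and so was not counted among the 6. Aim2 had no match. Of the other motifs searched on both strands, TTC, any 3 bases, GAA was in 0 of 8 (8.30% of all promoters), GGAA, any 2 bases, GAAA, which overlaps the first motif in its second part, in 0 (2.72%), and GGGA, any 3 bases, TCC, the letters of an NF-kB site, in 1, Pyhin1 (4.59%). A match of letters is a description and not a measured binding site.

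Such likeness also extends to the transcripts, which limits how well UMIs can be assigned. Of all 91-base stretches from the last 500 bases of annotated transcripts, 59.0% of those of Mnda occurred also in Ifi205 or Mndal, and 36.8% of those of Pyhin1 occurred also in Ifi214. The share was 29.5% for Ifi205, 9.12% for Mndal, 7.64% for Pydc3, 7.31% for Pydc4, with Ifi206 and Ifi208, and 0.972% for Ifi203. It was 0 for Ifi204 and Aim2. Counts of Mnda, Pyhin1 and Ifi205 are therefore uncertain, and because of unequal sharing CPM values are compared between libraries and not between genes.

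Aim2 was the member with the smallest fold range over the libraries. It stood at 115, 87.3, 96.3 and 188 CPM in the control libraries, and at 149, 127, 146 and 124 CPM in the A20 cKO libraries. Control day 3 was highest, and the lowest linked library was only 1.08 times the highest of the other 3. Among the A20 cKO libraries the counting intervals of neighbours in the order of levels (naive, day 2, day 1, day 3) overlapped. In cells thinned to 2000 UMIs, so that depth was equal, Aim2 was detected in 21.1, 16.2, 17.7 and 30.9% of control cells and in 25.2, 22.1, 24.7 and 22.2% of A20 cKO cells.

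Ifi204, the other DNA sensor, had levels that split by library set. Its CPM were 51.8, 30.4, 47.9 and 579 in the control libraries, and 428, 486, 784 and 811 in the A20 cKO libraries. Every linked library was at 8.26 times or more the highest of the other 3. In that order of levels only A20 cKO day 3 and day 2, and control naive and day 2, had overlapping counting intervals. Ifi204 was detected in 10.9, 10.8, 17.1 and 59.4% of control cells and in 45.9, 51.5, 88.6 and 88.5% of A20 cKO cells. After thinning these shares were 8.18, 5.52, 8.59 and 50.1%, and 39.4, 42.7, 72.5 and 73.1%. Among 19 cells with markers of another cell type and few of microglia, all from the linked set, whose median was 1330 UMIs, 0 had an Ifi204 UMI, which allows up to 15.8% of such cells to hold one by the limit of 3 counts and up to 17.6% by the exact interval. Mnda and Pyhin1 were each found in 1 of these cells and the other members in none.

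Pydc4 and Pydc3 encode members named for their pyrin domain. Pydc4 stood at 0.617, 1.14, 0.822 and 33.5 CPM in the control libraries, and at 114, 126, 211 and 235 CPM in the A20 cKO libraries. It thus had 3 tiers, with 1 to 16 UMIs per library in control naive, day 1 and day 2, 244 in control day 3 and 383 to 1020 in the A20 cKO libraries, none of which overlapped control day 3. After thinning it was detected in 0.114 to 0.203% of cells of the first 3 libraries, in 4.85% of control day 3 cells, and in 14.1, 15.6, 28.3 and 29.6% of A20 cKO cells. Pydc3 stood at 4.32, 0.285, 0.632 and 24.8 CPM in the control libraries and at 32.7, 47.5, 60.6 and 72.8 CPM in the A20 cKO libraries. Its linked libraries were all above the other 3, by a factor of at least 5.75.

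Mnda, the myeloid nuclear differentiation antigen, and its neighbour Mndal followed. Mnda stood at 0.617, 1.35, 1.83 and 67.0 CPM in the control libraries, and at 97.5, 123, 215 and 220 CPM in the A20 cKO libraries. All A20 cKO libraries lay above control day 3, which lay at 36.5 times or more the other controls. Mndal was sparse, with 108 UMIs in all, and was at the limit of detection in control naive, day 1 and day 2. It stood at 0, 0, 0.126 and 3.02 CPM in the control libraries and at 3.59, 2.97, 4.61 and 11.4 CPM in the A20 cKO libraries. In A20 cKO day 3, 31.0% of its UMIs came from 1 cell barcode.

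Pyhin1 stood at 18.5, 10.4, 11.1 and 147 CPM in the control libraries and at 153, 155, 225 and 283 CPM in the A20 cKO libraries. For Pyhin1, control day 3 (138 to 156), A20 cKO naive and A20 cKO day 1 had overlapping counting intervals. Control day 3 lay below A20 cKO day 2 (209 to 243) and A20 cKO day 3 (263 to 304). Ifi205 stood at 0, 0.142, 0.190 and 16.1 CPM in the control libraries and at 14.01, 25.1, 38.6 and 29.5 CPM in the A20 cKO libraries. In A20 cKO day 1, 35.5% of its UMIs came from 1 cell barcode. Ifi203 had 50 UMIs in all, 0 in control naive, day 1 and day 2 and 0.991 to 2.47 CPM in the linked libraries.

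**Figure D1:**
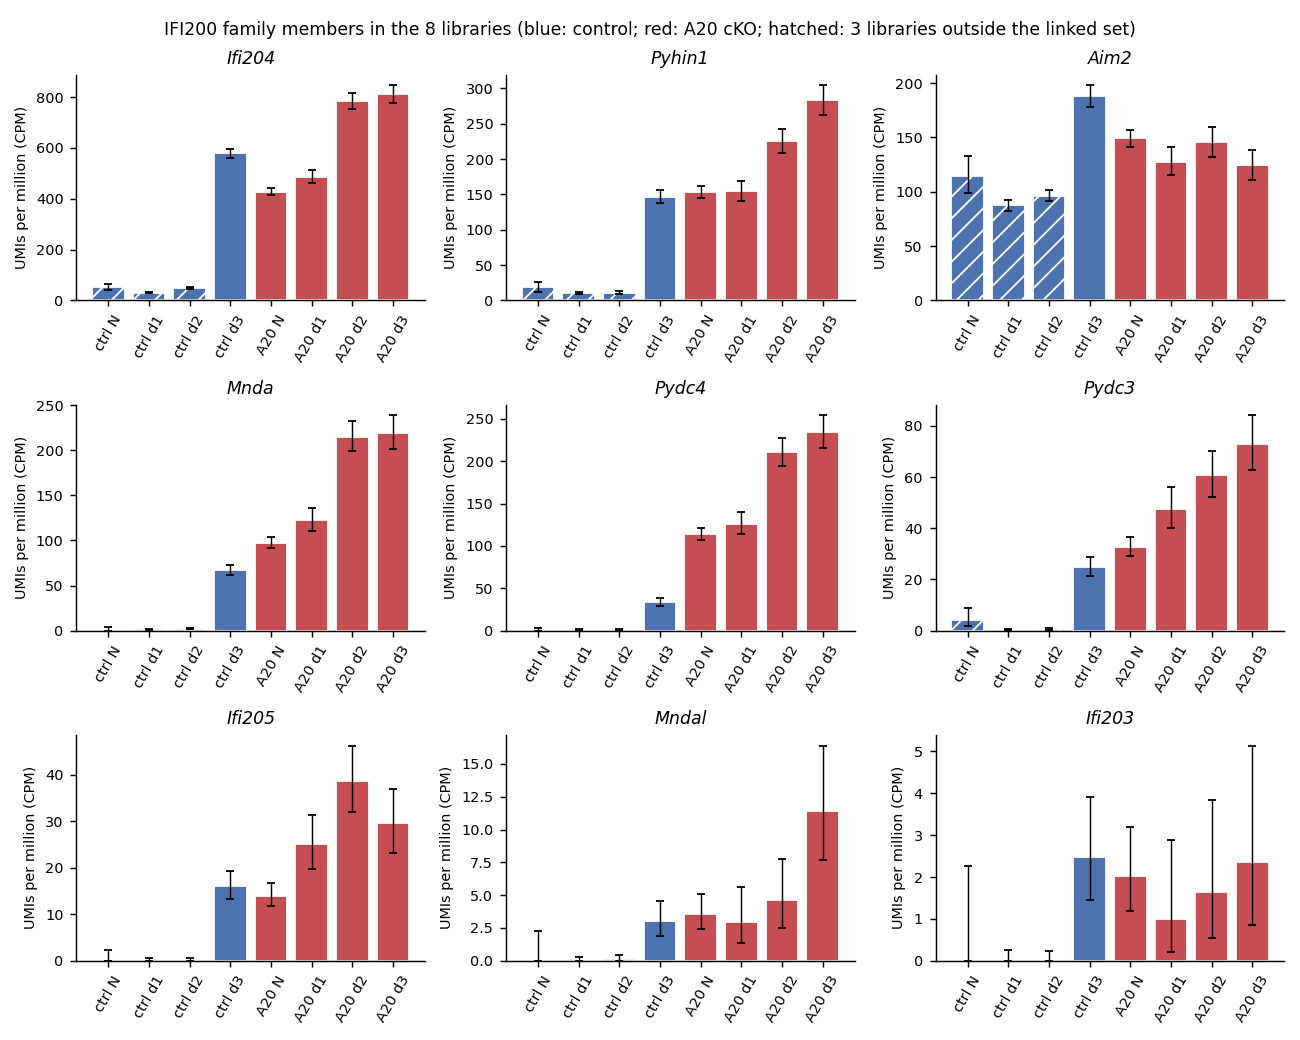
Level of each of the 9 members in the 8 libraries, in CPM (linear axes that start at 0 and differ between panels). Bars are single libraries, blue for control and red for A20 cKO, error bars are exact Poisson intervals at 95%, and hatched bars are control naive, day 1 and day 2. Pydc4 stands at 33.5 CPM in control day 3 and at 114 to 235 CPM in the A20 cKO libraries, while Aim2 stays between 87.3 and 188 CPM.

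Within the linked set, the only comparison of genotypes at the same time point was day 3, and there the members did not move together. Pydc4 was 6.995-fold higher in A20 cKO than in control (log2 ratio 2.81, 2.59 to 3.03), which placed it at rank 20 of 8488 genes. Mnda was 3.28-fold higher (log2 1.71, 1.54 to 1.89) and Pydc3 2.93-fold (log2 1.55, 1.25 to 1.85). The log2 ratio was 0.95 for Pyhin1, 0.88 for Ifi205 and 0.49 for Ifi204 (0.41 to 0.56). Aim2 went the other way, with a log2 ratio of −0.59 (−0.78 to −0.42). Thus 3 of the 7 members with at least 100 UMIs in both libraries together were at least 2-fold higher and 0 were 2-fold lower, where 1.86% of all genes were higher and 2.4% lower. By the mean of cell CPM, 5 of 7 were at least 2-fold higher. The median of all genes in this comparison was −0.12, so each value lies further up by that amount relative to the typical gene, and scaling by trimmed means moved the median to −0.03 with no change of direction for a member.

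The higher Pydc4 level was also found in the A20 cKO library of naive animals. In A20 cKO naive against control day 3, Pydc4 was 3.41-fold higher (log2 1.77, 1.57 to 1.98), while Mnda (0.54), Pydc3 (0.40) and Pyhin1 (0.06) were closer to control day 3, and Ifi205 (−0.20), Aim2 (−0.33) and Ifi204 (−0.43) had negative log2 ratios. Here 1 of 7 members was at least 2-fold higher, where 0.964% of all genes were, and 0 were 2-fold lower (1.49%). Pydc4 was the only member at least 2-fold above control day 3 in each of the 4 A20 cKO libraries, by 3.41- to 6.995-fold, and 39 of 8425 genes (0.463%) met this condition. No member was 2-fold below control day 3 in each of the 4 (0.0593% of genes were). The pattern was not particular to Pydc4. Oas2, another interferon-induced gene, stood at 12.2 CPM in control day 3 and at 41.9 to 91.7 CPM in the A20 cKO libraries. Isg15 did not share the pattern, at 236 CPM in control day 3 and 182 to 349 CPM in the A20 cKO libraries. Mnda ranged from 1.46- to 3.28-fold and Pydc3 from 1.32- to 2.93-fold over the same 4 comparisons, which all share control day 3.

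**Figure D2:**
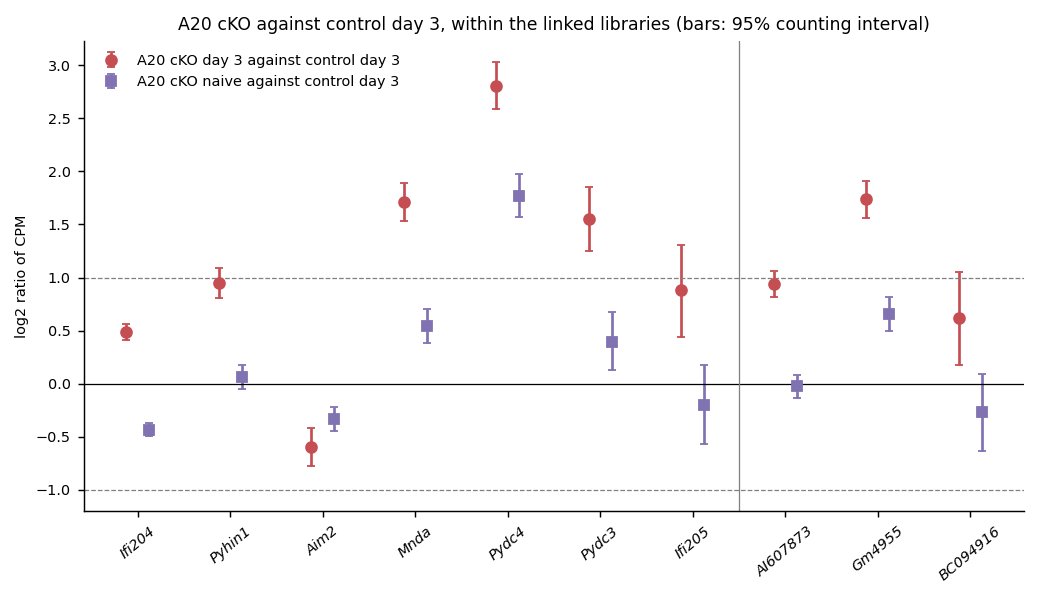
Log2 ratio to control day 3 of A20 cKO day 3 and of A20 cKO naive, for the members and 3 other genes of the cluster. Points are ratios of single libraries on the vertical log2 axis, bars are counting intervals at 95%, the solid line at 0 is no difference and dashed lines mark 2-fold. Of the 7 members with at least 100 UMIs, Pydc4 is highest in A20 cKO naive (1.77) and at day 3 (2.81), and Aim2 is below 0 in both.

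Over time in the A20 cKO libraries, which are all linked, the 7 members with at least 100 UMIs, apart from Aim2, were higher on days 2 and 3 than in naive animals. On day 3 the log2 ratio to naive was 1.17 for Mnda, 1.15 for Pydc3, 1.08 for Ifi205, 1.04 for Pydc4, 0.92 for Ifi204, 0.88 for Pyhin1 and −0.26 for Aim2, and 4 of 7 members were at least 2-fold higher where 1.92% of all genes were, and 0 lower where 2.0% were. On day 2 the values were 1.46 for Ifi205, 1.14 for Mnda, 0.89 for Pydc3, 0.88 for Pydc4, 0.87 for Ifi204, 0.56 for Pyhin1 and −0.03 for Aim2, with 2 of 7 members at least 2-fold higher against 2.86% of all genes and 0 lower against 2.65%, and with 5 of 7 by the mean of cell CPM. On day 1 no member reached 2-fold in either direction (0 of 7, against 1.56% of all genes higher and 1.39% lower), and the log2 ratios ran from −0.22 for Aim2 to 0.84 for Ifi205. That Ifi205 value was 0.22 without shared barcodes, which held 40.8% of its day 1 UMIs. A single cell barcode held 35.5% of its day 1 UMIs.

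In the 3 control libraries outside the linked set, few members could be compared. Ifi204, Pyhin1 and Aim2 had at least 100 UMIs, and on day 1 their log2 ratios to naive were −0.78, −0.85 and −0.40, with 0 of 3 members at least 2-fold higher (3.82% of all genes) and 0 at least 2-fold lower (7.25%). On day 2 they were −0.12, −0.75 and −0.26, again with 0 of 3 at least 2-fold higher (5.92%) or lower (6.28%). The median of all genes was −0.13 on day 1 and −0.12 on day 2, so the Ifi204 value on day 2 equalled the shift of the typical gene.

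The remaining comparisons crossed the 2 library sets. In A20 cKO against control, the log2 ratio of Ifi204 was 3.04 in naive animals, 3.998 on day 1 and 4.03 on day 2. That of Pydc4 was 6.95, 6.75 and 7.95, whereas that of Aim2 was 0.37, 0.55 and 0.60. The Pydc4 values rest on 1, 16 and 13 UMIs in the control libraries. Their intervals were 5.05 to 12.8, 6.08 to 7.62 and 7.22 to 8.92. At least 2-fold higher were 6 of 7 members in naive animals (7.43% of all genes), 5 of 6 on day 1 (15.5%) and 6 of 7 on day 2 (10.7%), and in each case the exception was Aim2. No member was 2-fold lower (2.22%, 3.25% and 4.66% of all genes were). In control day 3 against control naive, Ifi204 stood at 3.47, Pydc4 at 5.18 and Aim2 at 0.71, with 6 of 7 members at least 2-fold higher (8.76%) and 0 lower (2.32%). Ifi205 had no UMI in control naive and was at least 7.57-fold higher in A20 cKO naive and at least 8.67-fold higher in control day 3, against a floor of 3 UMIs. Genotype or day cannot be told apart from library set in these values. The member counts have a further limit, as the UMI minimum applied to both libraries together. In naive animals, UMIs in A20 cKO and control were 1020 and 1 for Pydc4 and 870 and 1 for Mnda. They were 125 and 0 for Ifi205 and 292 and 7 for Pydc3. Such members could enter only through the linked library, and so only as higher. The counts were therefore set in part by the filter and by choosing members with their levels known.

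The make-up of the family differed between control day 3 and the A20 cKO libraries even where its total was alike. All 9 members together stood at 191, 131, 159 and 1060 CPM in the control libraries and at 995, 1094, 1686 and 1788 CPM in the A20 cKO libraries. Per 100 Ifi204 UMIs there were 1.19, 3.75, 1.72 and 5.79 Pydc4 UMIs for control, and 26.7, 26.0, 26.9 and 28.9 for the A20 cKO libraries. The A20 cKO values lay within a narrow band although Ifi204 ranged from 428 to 811 CPM among them, and control day 3 was below that band while its Ifi204 level lay inside the A20 cKO range. Mnda per 100 Ifi204 UMIs was 1.19, 4.45, 3.83 and 11.6 for control and 22.8, 25.3, 27.4 and 27.1 for A20 cKO. Pydc3 was 8.33, 0.937, 1.32 and 4.29 for control, where the first value rests on 7 UMIs, and 7.64, 9.79, 7.73 and 8.98 for A20 cKO. Over all libraries Pyhin1 did not separate the genotypes, with 35.7, 34.2, 23.2 and 25.3 for control and 35.8, 31.9, 28.7 and 34.9 for A20 cKO. Inside the linked set, control day 3 (23.7 to 27.1) lay below each A20 cKO value. Only the interval of A20 cKO day 2 (26.3 to 31.3) overlapped that of control day 3. Aim2 made up 60.2 to 66.7% of member UMIs in control naive, day 1 and day 2 and 6.95 to 17.7% in the linked libraries. Counts of Mnda, Pyhin1 and Ifi205 are uncertain through shared transcript ends. The share of Aim2 is thus compared between libraries only, and its size is uncertain.

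**Figure D3:**
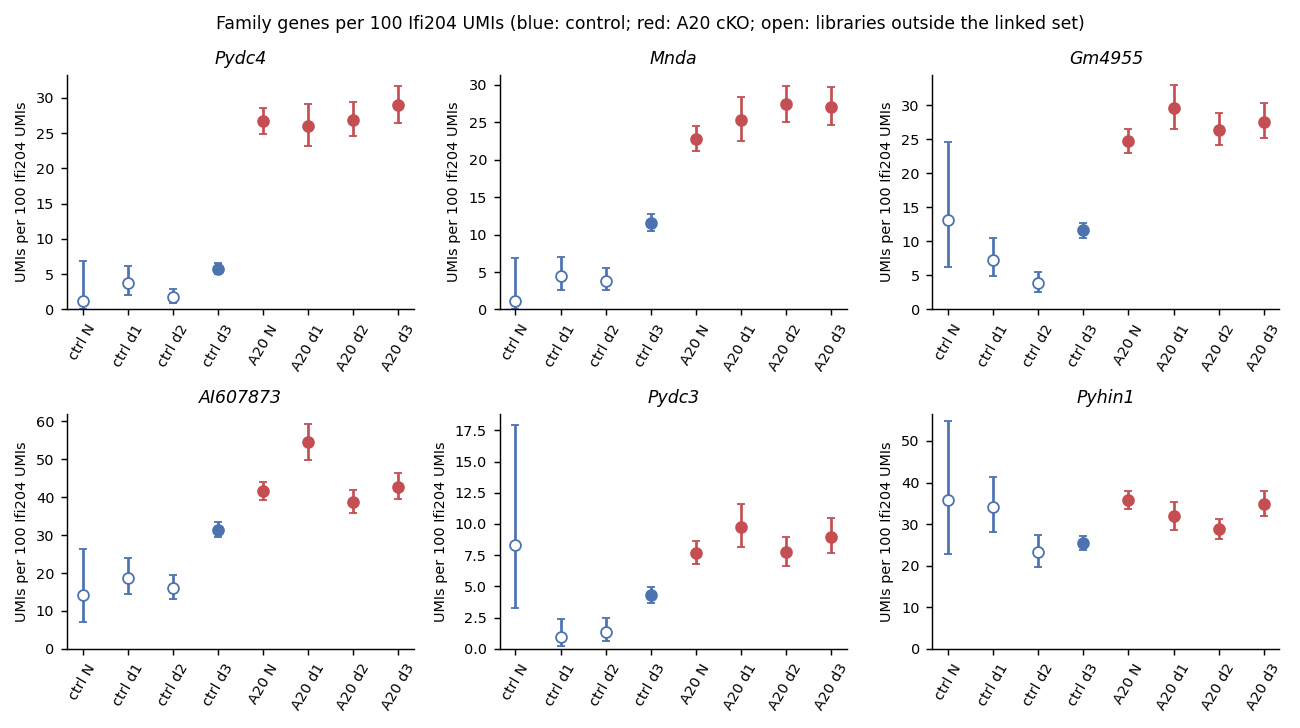
UMIs of Pydc4, Mnda, Gm4955, AI607873, Pydc3 and Pyhin1 per 100 UMIs of Ifi204 in each library. Points are single libraries with counting intervals at 95%, blue for control and red for A20 cKO, open for libraries outside the linked set. Pydc4 lies between 26.0 and 28.9 in the A20 cKO libraries and between 1.19 and 5.79 in the control libraries. Over all libraries Pyhin1 overlaps between the genotypes, while control day 3 is the lowest of the linked libraries.

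Other genes of the same cluster were measured in the same way. Gm4955 (Ifi206 in GENCODE M21), whose promoter window matched that of Pydc4 at 59 of 60 positions, stood at 6.79, 2.21, 1.83 and 67.2 CPM in the control libraries and at 106, 144, 207 and 224 CPM in the A20 cKO libraries, a log2 ratio of 1.74 on day 3. Of its 91-base stretches 12.01% also occurred in other genes. AI607873 (Ifi207) stood at 7.41, 5.69, 7.71 and 181 CPM for control and at 178, 264, 304 and 347 CPM for A20 cKO. BC094916 (Ifi214) ranged from 0.498 to 27.0 CPM, and Ifi202b had 0 UMIs in all 8 libraries.

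Cells often held several members. At least 3 of the 9 were detected in 0.704, 0.481, 0.948 and 20.8% of cells of the control libraries, and in 21.7, 26.5, 60.7 and 61.8% of cells of the A20 cKO libraries, without thinning. In thinned cells, Pydc4 was detected in 27.0% (24.3 to 29.8) of A20 cKO naive cells with an Ifi204 UMI and in 5.28% (4.23 to 6.503) of those without. In control day 3 the shares were 7.23% and 2.92%, and in A20 cKO day 3 they were 34.2% and 15.7%. In A20 cKO day 2 they were 30.8% (26.5 to 35.2) and 22.4% (16.5 to 29.3), with overlapping intervals. Aim2 was nearly as frequent in cells without Ifi204 as in cells with it, at 30.0 and 32.9% in control day 3 and at 24.1 and 26.9% in A20 cKO naive.

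To see how members varied among cells of 1 library, cells were classed by a separate list of 14 interferon-induced genes (Ifit1, Ifit2, Ifit3, Isg15, Rsad2, Usp18, Oasl1, Oasl2, Irf7, Rtp4, Cmpk2, Mx1, Ifi44 and Herc6). Thinned cells with UMIs of at least 2 of these were called interferon-high and those with 0 interferon-low; this is a range and not a cell type, and 1267 of 3743 high cells stood exactly at 2 genes. Interferon-high cells made up 8.76, 3.38, 5.83 and 49.7% of the control libraries and 42.3, 49.2, 80.4 and 81.0% of the A20 cKO libraries. Because both classes came from the same library, this contrast has 8 libraries behind it, and it was tested on UMI sums with edgeR's quasi-likelihood test, blocked by library. The p-values measure the spread of this contrast over 8 libraries of different groups. High cells were somewhat deeper, with a median of 3824 UMIs in the top class (4 or more genes) against 3056 in low cells of control day 3, and the part of depth beyond the thinning was not tested.

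Of 6 members that passed the filter on low counts, which Ifi203, Ifi205 and Mndal did not, 5 were higher in interferon-high cells and 0 lower, where 3.42% of 9266 genes were higher and 0.831% lower. This share is not a neutral baseline, because 28 of 28 other interferon-induced genes tested were also higher. The members are interferon-inducible, and members and class list were chosen with these data known. The p-values below are therefore no independent evidence of a link to interferon. They describe which members went with the class list. Ifi204 stood at 33.5, 23.1, 39.96 and 202 CPM in interferon-low cells of the control libraries and at 207, 168, 140 and 904 CPM in interferon-high cells. In the A20 cKO libraries it stood at 103, 151, 397 and 340 CPM in low and at 766, 786, 863 and 914 CPM in high cells, a log2 fold change of 2.22 ± 0.14 over the 8 libraries (SE, edgeR adjusted p = 5.8e-12). The change was 3.95 ± 0.25 for Mnda (edgeR adjusted p = 4.9e-12), 3.72 ± 0.23 for Pydc3 (1.8e-12), 3.07 ± 0.22 for Pydc4 (6.1e-11) and 2.48 ± 0.12 for Pyhin1 (4.0e-14). Each of Ifi204, Pyhin1, Pydc4 and Pydc3 was higher in high cells in 8 of 8 libraries, and Mnda in 7 of 8, with 0 UMIs in both classes in the other. In control naive, day 1 and day 2, Pydc3 had 3, 1 and 3 UMIs in high cells and 4, 2 and 3 in low. Pydc4 had 1, 8 and 4 UMIs in high cells and 0, 5 and 8 in low. These libraries therefore add little for Pydc3 and Pydc4. Aim2 was at 111, 88.2, 95.9 and 168 CPM in low and at 92.6, 91.5, 96.9 and 206 CPM in high cells of the control libraries, and its change over all libraries was 0.14 ± 0.08 (edgeR adjusted p = 0.458), with 7 of 8 libraries higher in high cells. Without the library block, Ifi204 and Pydc4 lost the call (edgeR adjusted p = 0.108 for each). Of 8 microglial markers, 1 was lower in interferon-high cells and none passed as higher.

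**Figure D4:**
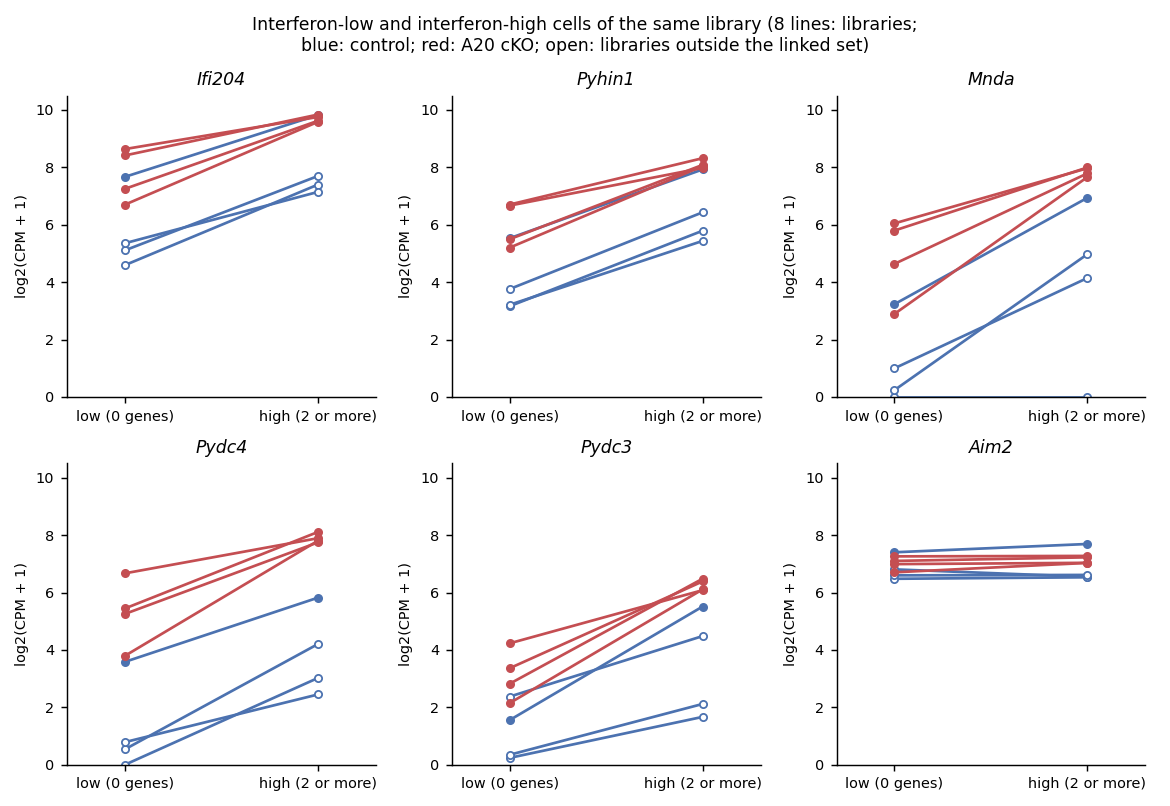
Level of 6 members in interferon-low and interferon-high cells of each library, as log2(CPM + 1) of UMI sums. Each line joins the 2 classes of 1 library, blue for control and red for A20 cKO. The lines of Ifi204, Pyhin1, Pydc3 and Pydc4 climb in 8 of 8 libraries, and those of Aim2 are nearly flat. For Pydc3 and Pydc4, control naive, day 1 and day 2 rest on at most 8 UMIs per class.

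Pydc4 was higher in A20 cKO day 3 than in control day 3 in each interferon class, and so were Mnda and Gm4955. Ifi204 and Pyhin1 depended on the class. The Mnda log2 ratios were 2.72, 2.29, 1.87 and 0.71 with 0, 1, 2 to 3 and 4 or more of the 14 genes. Those of Gm4955 were 2.18, 3.36, 1.68 and 0.77. In cells with 4 or more of the 14 genes, Pydc4 stood at 90.8 CPM in control day 3, 333 CPM in A20 cKO naive and 343 CPM in A20 cKO day 3, a log2 ratio of 1.91 (1.66 to 2.18) between the day 3 libraries. In the same cells Ifi204 stood at 1316 CPM in control day 3 and 1065 CPM in A20 cKO day 3, a log2 ratio of −0.30 (−0.40 to −0.21). With 0, 1 and 2 to 3 of the genes, the Ifi204 ratio between these libraries had the other sign, at 0.76, 0.65 and 0.54. In the top class Mnda had a log2 ratio of 0.71 and Pydc3 of 0.70, while the interval of Pyhin1 (0.07, −0.10 to 0.24) included 0, against ratios of 1.22 in cells with 0 and 0.95 in cells with 2 to 3 of the genes. Aim2 stood at 234 and 138 CPM. In cells with 0 of the 14 genes, Pydc4 stood at 10.99 CPM in control day 3 and at 12.9, 37.2, 101 and 42.5 CPM in the A20 cKO libraries, the last 2 from 17 and 7 UMIs. The log2 ratio to control day 3 in these cells was 0.21 (−0.68 to 1.18) for A20 cKO naive and 2.01 (0.44 to 3.29) for A20 cKO day 3. Per 100 Ifi204 UMIs, Pydc4 stood at 12.5, 18.2, 24.0 and 31.1 over the 4 classes in A20 cKO naive, and at 5.43, 3.62, 3.79 and 6.90 in control day 3. These cells were chosen by genes whose own levels differed between the libraries, and no test between the single libraries was possible.

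**Figure D5:**
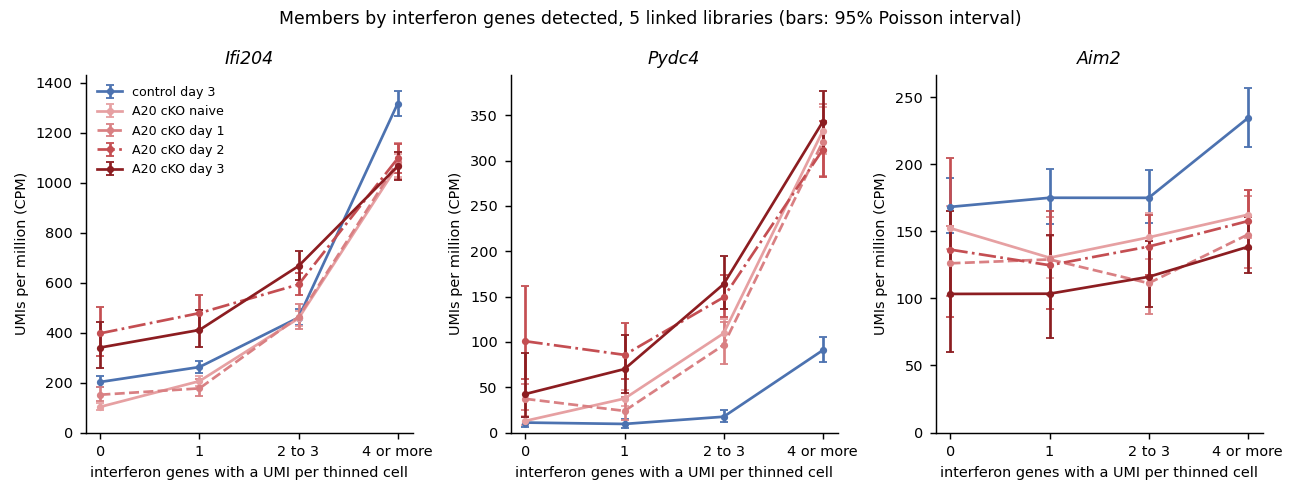
CPM of Ifi204, Pydc4 and Aim2 in cells with 0, 1, 2 to 3 and 4 or more of the 14 interferon-induced genes, for the 5 linked libraries. Points are UMI sums over the cells of a class in 1 library and error bars are counting intervals at 95%. In the top class Pydc4 is at 90.8 CPM in control day 3 and at 333 and 343 CPM in A20 cKO naive and day 3, whereas Ifi204 is highest in control day 3.

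Spinal microglia divide after this injury, and members were compared between dividing and other cells of the same library. Dividing cells (UMIs of at least 3 of 18 G2/M genes) were compared with non-dividing cells in the 6 libraries that had at least 20 of them, which left out control naive and day 1. Of 9720 genes 14.9% were higher and 11.8% lower in dividing cells, but 0 of 7 members passed with edgeR's quasi-likelihood test or with DESeq2. At an unadjusted p under 0.05 there was 1 member in edgeR and 0 in DESeq2. That 1 was Pydc3, with a log2 fold change of 0.38 ± 0.17 (edgeR adjusted p = 0.120), and in the 5 linked libraries alone, that is without control day 2, it passed at 0.42 (edgeR adjusted p = 0.0493).

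The other genes of the pathway were taken from lists. No interferon ligand gene had enough UMIs to be compared, and Ifnb1, the gene of interferon beta, had 44 UMIs in all, at 0, 0.142, 0 and 0.412 CPM in the control libraries and 0.897, 1.32, 4.94 and 4.72 CPM in the A20 cKO libraries. Of 7 interferon receptor genes, which include Ifngr1 and Ifnar2, 0 differed 2-fold in A20 cKO day 3 against control day 3. Of 6 downstream factors, 0 differed 2-fold on day 3 and 4 were higher in interferon-high cells. Of 12 DNA-sensing genes tested 0 differed 2-fold on day 3. Zbp1, a nucleic acid sensor, stood between 6.83 and 10.49 CPM in control naive, day 1 and day 2 and between 85.2 and 207 CPM in the linked libraries, whereas Tmem173 (STING) stood at 313, 284, 259 and 159 CPM for control and 202, 209, 124 and 127 CPM for A20 cKO. Of 29 further interferon-induced genes, 8 were at least 2-fold higher and 1 lower on day 3 (median log2 ratio 0.45, against −0.12 for all genes), and 28 of the 28 tested were higher in interferon-high cells.

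Across the 8 libraries, the mean profile, on log2(CPM + 1), of the 7 members with a mean of at least 10 CPM was most like those of Samd9l (Pearson r = 0.998), Vps13c, Ifih1, Ifit1, Iigp1, Isg15, Gbp4, Phf11a, Helz2 and AI607873 (r = 0.995). Samd9l stood at 6.40 to 12.3 CPM in control naive, day 1 and day 2 and at 114 to 194 CPM in the linked libraries. These are descriptions over 8 points in 2 sets, over which the linked libraries are high, and 10.52% of 8225 genes had r above 0.9. Over the 5 linked libraries alone, 1 of these 10 genes, Phf11a, was again among the 10 most like the members. Among the members themselves, pairs without Aim2 had r from 0.89 to 0.995, and Aim2 had r from 0.64 to 0.85 with the others.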

How the data were processed

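Single YFP (+) microglia of 8 libraries were measured with the 10x Genomics 3′ chemistry, for which the labels and the study's methods name different kit versions. The files deposited by the authors hold raw UMI counts of each gene in each barcode already called as a cell, with no normalization. The submitters' processing notes name Cell Ranger 2.1.1 and the build mm10. The thresholds for calling cells, the annotation release and any doublet removal were not given in the sources used here. No sample column was left unused (0).

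The members and all gene lists were chosen with earlier results of these data known. Cells were kept at 1000 or more UMIs, 500 or more genes and at most 10% mitochondrial UMIs. No doublet caller was run, and an alternative left out cells with UMIs of at least 3 markers of another type. A level is the UMI sum of a library scaled to CPM. Ratios had 0.5 UMIs added, and a 2-fold call needed 100 UMIs or more over the pair of libraries. Groups were not tested against each other, because each was 1 library of pooled animals and cells are not replicates. Exact Poisson, Clopper-Pearson and conditional intervals (95%) cover counting error only. A count of 0 was given the limit of 3 counts.

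Shares were also taken in 13691 cells thinned to 2000 UMIs without replacement, leaving out 935 shallower cells (naive to day 3: 66, 98, 105 and 239 of control; 310, 56, 41 and 20 of A20 cKO). Cell classes were set in thinned cells by genes left out of the test, and full UMI sums per library and class were compared in edgeR 4.0.16 (R 4.3.3; filterByExpr, TMM, glmQLFit and glmQLFTest, Benjamini-Hochberg over all genes tested, threshold 0.05) with the library as a block, since both sums came from the same cells' library; DESeq2 1.42.0 was an alternative. On simulated counts, edgeR recovered 98.0% of genes changed by a log2 of 1 and 100% of those by 2 for the interferon classes (9259 genes, 9 false calls), and 90.6% and 100% for dividing cells (9610 genes, 8 false calls). Transcripts and coordinates were from GENCODE M21 matched by Ensembl ID, promoters from RefSeq (GRCm38.p6). Python 3.11.15, numpy 2.4.6, scipy 1.17.1 and pandas 2.3.3 were used. Named were all members and the listed genes of the cluster, of each other list at most 4 genes of highest mean CPM, and the 10 genes most like the members' mean profile. Tnfaip3 was reported as the targeted gene, and Oas2 as another gene with the Pydc4 pattern. Some genes of the lists are not reported here.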

Additional observations from a re-analysis of the deposited data

Results flagged for a closer look

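In 6 of 33 pairs of comparisons of the same kind, a member's log2 ratio had opposite signs with both counting intervals clear of 0, each from single libraries, and none of these differences was tested. Ifi204 on day 1 against naive was −0.78 in control and 0.18 in A20 cKO, and Pyhin1 on day 2 against naive was −0.75 in control and 0.56 in A20 cKO. Aim2 on day 3 against naive was 0.71 in control, which crosses the 2 library sets, and −0.26 in A20 cKO. In A20 cKO against control, Aim2 was −0.59 on day 3, inside the linked set, but 0.37 in naive animals, 0.55 on day 1 and 0.60 on day 2, which all cross the sets. Each value kept its sign under the 7 alternatives tried for it.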

How the results depend on the processing

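Alternatives for the ratios were all deposited barcodes, a stricter cell filter, the mean of cell CPM, TMM factors, and leaving out shared barcodes, cells with markers of another type or dividing cells. Of 693 log2 ratios recomputed, 670 stayed inside their counting interval, and 93 of 99 counts of members stayed within 1.5 times. The 693 include members below the UMI minimum. Ratios with 0 UMIs in both libraries had an unbounded interval, which they could not leave. The count of members at least 2-fold higher in A20 cKO day 3 against control day 3 was 5 instead of 3 with the mean of cell CPM or a fold of 1.5, in A20 cKO day 2 against naive 5 instead of 2 with the same settings, in A20 cKO day 1 against naive 1 instead of 0 at a fold of 1.5, and in control day 2 against naive 1 instead of 0 with a floor on CPM in place of UMIs. Thinning moved 48 of 72 shares of cells. No paired analysis was possible because each group was a single library without a replicate number. For the cell classes, the library block paired the sums: 5 members were called between interferon-high and -low cells, 8 with no filter on low counts and 3 with no replicate block, and leaving out 1 library gave 4 to 5 (4 without A20 cKO day 2, where Pydc3 did not pass the filter). Between dividing and other cells, 0 members were called, 1 within the linked libraries, and 0 to 1 when leaving out 1 library (1 without control day 2, which gives the same libraries). Log2 changes with division near 0 changed sign: Pydc4 was −0.03 with no replicate block and −0.063 with another thinning seed; Pyhin1 −0.0045 with DESeq2, −0.013 with no filter, −0.017 with no replicate block and −0.093 with another seed; with a higher class threshold Ifi204 was −0.020 and Mnda −0.13. Leaving out 1 library gave −0.02 to 0.12 for Pydc4, −0.051 to 0.12 for Pyhin1, −0.034 to 0.11 for Ifi204 and −0.0025 to 0.27 for Mnda, with the negative values without A20 cKO naive and, for Pyhin1, also without control day 3 (−0.051; −0.032 without A20 cKO naive). The cause was not tested for any of these. Depth limited Ifi203, with 50 UMIs, and Mndal, with 108, and in control naive, day 1 and day 2 also Pydc4, Mnda and Ifi205.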
